A study of Mus musculus with 10 samples.

Results

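The replication-dependent histone genes were examined as 70 features of 65 genes, out of 43031 features in all. Members were chosen by name, as every feature whose mouse symbol begins with Hist1h, Hist2h, Hist3h or Hist4h. This gene family was picked with earlier results of these data known, so the choice was not blind to the values. Of the 70 features, 58 lie in the Hist1 cluster on chromosome 13, 9 in the Hist2 cluster on chromosome 3, 2 in the Hist3 cluster on chromosome 11, and 1, Hist4h4, on chromosome 6. By class they comprise 6 linker histone H1, 17 H2A, 23 H2B, 11 H3 and 13 H4 features.

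These genes supply the bulk of the histones that package newly made DNA, and their mRNAs accumulate during S phase. Most have no introns, and their mRNAs are not polyadenylated: the 3′ end forms just beyond a conserved stem-loop, which the stem-loop binding protein SLBP holds while the U7 snRNP directs the cut. Some of the genes also yield longer, polyadenylated mRNAs that run past the stem-loop. H2A, H2B, H3 and H4 form the core of the nucleosome, whereas H1 binds the linker DNA.

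The libraries hold bulk RNA of C57BL/6 mouse embryonic stem cells (ESC), grown with leukemia inhibitory factor on mitomycin C-treated embryonic fibroblasts or on gelatin. Wild type (WT) ESC were compared with the DIDO3_exon16 mutant (DIDO3ΔE16), homozygous for loss of the exon that encodes the part of the protein specific to DIDO3, and with DIDO3_dCT+HADIDO3 cells (DIDO3ΔCT+HADIDO3), which carry a constitutive deletion affecting the same exon and express HA-tagged DIDO3. The exon 16 deletion was made by crossing floxed mice to SOX2-Cre mice. The last group therefore holds both a deletion and an added protein, and no library of the deletion without HADIDO3 was analysed here, so their parts cannot be told apart. Each group was represented by 3 libraries. WT replicates 2 and 3 were the same library under 2 labels and were counted once, as WT replicate 2-3. No source used here says that the replicates of a group came from separate lines or cultures, so the spread between them may be technical. The authors extended each annotated 3′UTR by 2 kb downstream to look for RNA beyond the annotated ends of genes, and each value is the level of such an extended 3′UTR in TPM, a unit that corrects for length and sets every library to the same total.

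For the histone genes this unit needs care. In 62 of the 70 features the 3′UTR used by the authors is only 42 to 79 bases long, so nearly all of the measured stretch is the sequence added downstream of it. In 23 of these 62, however, GENCODE annotates a longer 3′UTR of the same gene, of more than 100 bases, in an unspliced transcript. Part of the added stretch is then annotated mRNA of a longer form. Spliced transcripts were not counted, and those of Hist1h2bc, Hist1h2bq and Hist1h2br have 3′UTRs of 742, 1608 and 1803 bases. The values therefore mostly describe RNA past the stem-loop of the gene and are no measure of its short mRNA. The other 8 features have a 3′UTR of more than 100 bases. In the GENCODE vM21 transcripts (GRCm38, the mm10 assembly), 50 of the 65 genes had at least 30 bases of 3′UTR to search. The search was for a stem of 6 base pairs (G-T pairs allowed) around a loop of 4 bases. The stem had to begin with GG and end with CC. Such a stem-loop was found in 44 genes, 21 to 58 bases after the stop codon (median 31). Their stem-loops fell into 8 sequences, one of them shared by 24 genes of the H1, H2A, H2B and H3 classes. The sequences below are those of members that the results turn on, printed on the strand of the gene with the stem-loop in capitals, to show the mark at which the normal mRNA ends.
Hist1h1c, chr13:23739507-23739532, plus strand: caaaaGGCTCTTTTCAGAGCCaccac
Hist3h2ba, chr11:58949344-58949369, plus strand: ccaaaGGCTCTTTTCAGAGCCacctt
Hist2h3c1, chr3:96247322-96247347, plus strand: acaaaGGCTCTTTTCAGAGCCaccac
Hist1h2bk, chr13:22036295-22036320, plus strand: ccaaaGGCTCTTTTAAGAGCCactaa
Hist1h4j, chr13:21735432-21735457, plus strand: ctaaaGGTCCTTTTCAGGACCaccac
Hist2h4, chr3:96262934-96262959, minus strand: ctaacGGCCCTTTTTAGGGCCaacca
Hist1h1c, Hist3h2ba and Hist2h3c1 share the commonest form, Hist1h2bk differs from it in the loop, and the GGTCC and GGCCC stems occurred in H4 genes only. In 42 features with a short 3′UTR the annotated end lay 4 to 8 bases (median 5) after the stem-loop, so the added 2 kb began there. No such stem-loop was found in Hist1h1a, Hist1h2bc, Hist1h2bq, Hist1h2br, Hist2h2be or Hist2h3b, where a stem with a mismatch or with other end bases would have been missed. For Hist1h2bc, Hist1h2bq and Hist1h2br the 3′UTR searched came from spliced transcripts. Whether it held the bases of the short 3′UTR was not checked, so a stem-loop there may have been missed. Hist2h3b had only 37 bases to search.

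The signal was low for most members. The mean over the 9 libraries had a median of 0.951 TPM across the 70 features, 37 features were below 1 TPM, 11 reached 5 TPM and 4 reached 10 TPM. Hist1h2ag, Hist1h1c, Hist3h2a and Hist1h2bc together made up 41.2% of the summed signal, and Hist1h4d was listed at 0 in every library. Between 61 and 67 members were above 0 in each library. The testis histones Hist1h2aa and Hist1h2ba were at 0 in all 3 WT libraries and at most 0.23 TPM elsewhere. Counts of reads were not analysed here, and 32 members had under 10 kb of aligned bases over all libraries together, so fold changes of low members rest on few reads.

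Aligned bases on all features ranged from 1.46 to 2.62 Gb per library. The targeted gene followed the labels: its feature at the end of the last exon (Dido1, uc008ojq.2) read 13.7 to 17.9 TPM in WT against 0.307 to 0.546 in DIDO3ΔE16 and 10.9 to 12.1 in DIDO3ΔCT+HADIDO3. WT replicates 1 and 4 came from flow cells whose names begin C7A and all other libraries from flow cells beginning C79, so only WT replicate 2-3 shared a family with the mutants. Fibroblast collagens differed between the groups, with Col1a1 at 11.7 ± 1.63, 28.7 ± 1.02 and 1.14 ± 0.316 TPM in WT, DIDO3ΔE16 and DIDO3ΔCT+HADIDO3 (SD, n = 3). Of 7 fibroblast markers, 4 of the 5 tested were higher in DIDO3ΔE16 than in WT, while in DIDO3ΔCT+HADIDO3 Thy1 was higher, Col1a1 and Col1a2 were lower, and Col3a1 stood at 0. Summed, these markers ran from 49.3 to 55.8 TPM in WT against 103.0 to 106.9 in DIDO3ΔE16 and 53.5 to 57.3 in DIDO3ΔCT+HADIDO3, where Thy1 made up nearly all of the sum. The other 6 markers summed to 30.7 to 36.1 TPM in WT against 70.9 to 74.6 in DIDO3ΔE16 and 1.26 to 1.81 in DIDO3ΔCT+HADIDO3. Lum, another marker, was listed at 0 in WT and DIDO3ΔE16, but an exact 0 here can be a failed estimate, since Srrt and Asf1a, genes that every cell uses, were listed at 0 in all 9 libraries. The part of fibroblasts in the histone results was not tested. In bulk RNA, more cells of a type and more RNA per cell cannot be told apart.

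Summed over all 70 features, the histone signal was lowest in WT against intermediate in DIDO3ΔE16 and highest in DIDO3ΔCT+HADIDO3, and no library of one group overlapped another group. WT replicates 1, 2-3 and 4 read 136.8, 138.7 and 143.7 TPM. The 3 DIDO3ΔE16 libraries read 169.5, 196.2 and 178.8 TPM, and the 3 DIDO3ΔCT+HADIDO3 libraries read 298.3, 280.4 and 303.7 TPM. The group means were 139.7 ± 3.59, 181.5 ± 13.5 and 294.1 ± 12.2 TPM, that is 1.3 and 2.1 times WT. WT replicate 2-3, run on the C79 flow cells like the mutants, lay between the other WT libraries. This is 1 library, and the part of the flow cell in these sums was not tested. Leaving out the 4 genes with the most signal, the sums of the mutants were 1.58 and 2.09 times WT.

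Every class had the same order of means. H4 went from 7.38 ± 0.349 TPM in WT to 13.7 ± 1.03 in DIDO3ΔE16 and 20.4 ± 0.59 in DIDO3ΔCT+HADIDO3, and H1 from 15.2 ± 1.26 to 25.9 ± 1.22 and 39.9 ± 3.30. For both classes the 3 groups were fully separate. Within the H1 sum, however, Hist1h1c averaged 10.03, 20.41 and 33.39 TPM in WT, DIDO3ΔE16 and DIDO3ΔCT+HADIDO3. Most of the H1 signal and nearly all of its rise were those of this gene. The H1 sums and their ratios to WT therefore mostly describe Hist1h1c and not the class. H2A, the class with the most signal, read 75.4 ± 1.48, 83.1 ± 7.02 and 130.9 ± 7.06 TPM. Its largest member, Hist1h2ag, read 31.3, 21.1 and 40.3 TPM on average, and its feature covers the coding sequence of the H4 gene Hist1h4i. Those of Hist1h2ab, Hist1h2ad, Hist1h2af, Hist1h2ai, Hist1h2ao, Hist1h2ap and Hist2h2aa2 also cover an H3 or H4 coding sequence on the same strand. The H2A sum therefore cannot be read as RNA of H2A genes alone. As ratios to WT, the DIDO3ΔE16 sums were 1.71 for H1, 1.10 for H2A, 1.27 for H2B, 1.78 for H3 and 1.85 for H4, and these were not tested against each other. H2B read 30.7 ± 2.69, 39.1 ± 2.46 and 78.6 ± 3.71 TPM. H3 was the exception to separation: DIDO3ΔE16 (16.1, 24.1 and 18.8 TPM) overlapped DIDO3ΔCT+HADIDO3 (19.2, 19.5 and 34.3 TPM), and both were above WT (9.51, 12.2 and 11.4 TPM). The high replicate 3 of DIDO3ΔCT+HADIDO3 came from Hist1h3g, chosen for mention after its values were seen, which read 11.1 TPM there and 0.424 and 0.47 TPM in the other two.

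**Figure D1:**
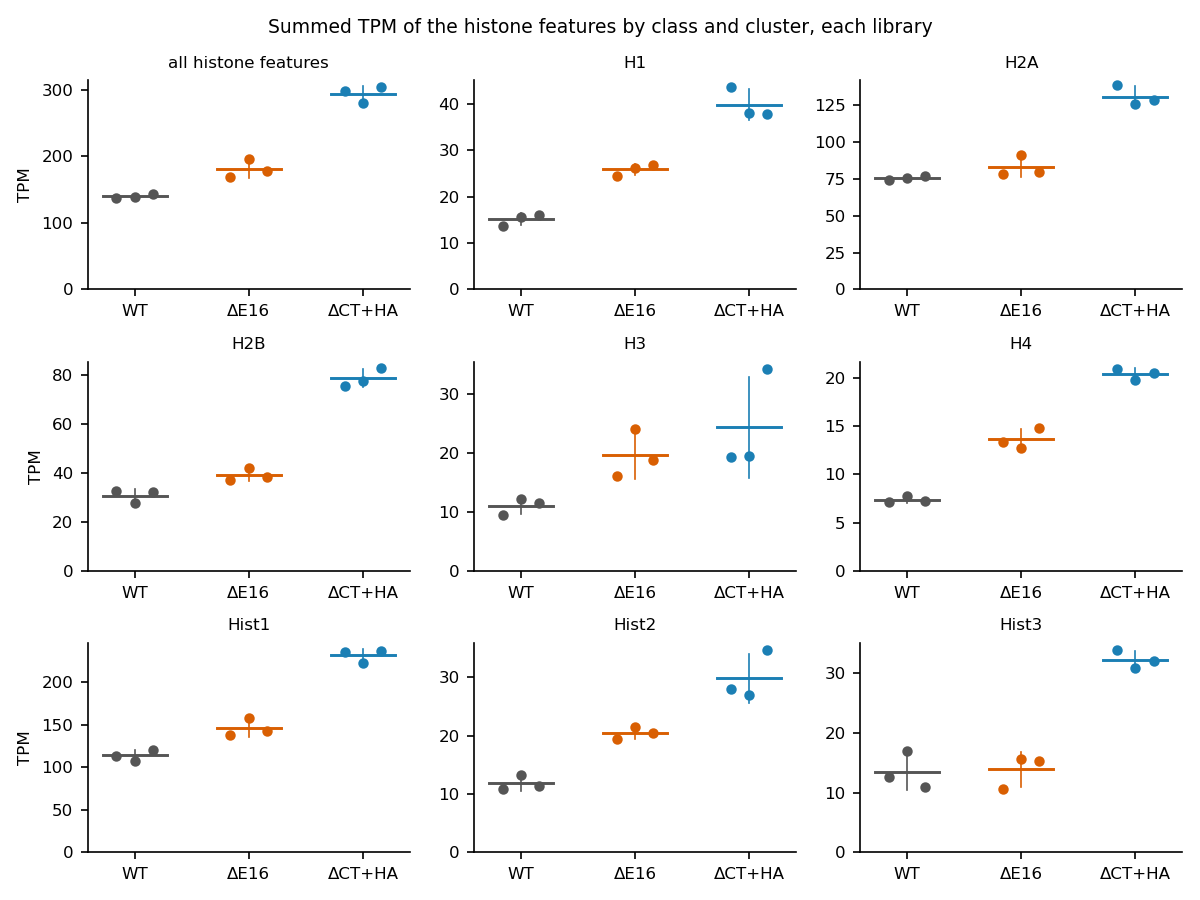
Summed TPM of the histone features in each of the 9 libraries, over all features, by class and for the Hist1, Hist2 and Hist3 clusters; points are libraries, horizontal lines group means and vertical lines 1 SD, and ΔCT+HA stands for DIDO3ΔCT+HADIDO3. Over all features WT lies at 136.8 to 143.7 TPM, DIDO3ΔE16 at 169.5 to 196.2 and DIDO3ΔCT+HADIDO3 at 280.4 to 303.7, whereas the mutants overlap for H3 and WT overlaps DIDO3ΔE16 for Hist3.

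By cluster, Hist1 summed to 113.2, 108.0 and 121.0 TPM in WT against 138.6, 158.6 and 142.7 in DIDO3ΔE16 and 236.0, 222.5 and 236.8 in DIDO3ΔCT+HADIDO3. Hist2 went from 11.8 ± 1.23 TPM in WT to 20.5 ± 1.04 and 29.8 ± 4.21, or 1.74 and 2.53 times WT. For Hist3 in DIDO3ΔE16, the 13.9 ± 2.87 TPM overlapped the 13.5 ± 3.13 TPM of WT, while DIDO3ΔCT+HADIDO3 reached 32.3 ± 1.55 TPM. The difference between clusters was not tested. Hist4h4, alone on its chromosome, stayed below 1 TPM in all libraries and was not called in any comparison.

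The comparison of DIDO3ΔE16 with WT addressed what is lost with exon 16. A feature was tested where it was above 0 in all 6 libraries and was called where limma gave a Benjamini-Hochberg adjusted p under 0.05, over all features tested, and a change of at least 0.7 on the log2(TPM + 0.1) scale. Of the 70 members, 57 were tested, 10 were higher (17.5%) and 1 was lower (1.75%). Among all 25293 features tested, 8.17% were higher and 4.14% lower. The median log2 fold change was 0.50 over the tested members and -0.01 over all other features, and 43 of the 57 values were above 0. The rises were 2 of 6 H1, 1 of 12 H2A, 3 of 21 H2B, 2 of 9 H3 and 2 of 9 H4 members tested. On this scale the change of members below 1 TPM is understated.

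The linker histone gene Hist1h1c (uc007puq.3, chr13:23739488-23741531) had the most signal among the members that rose. It read 9.42, 10.2 and 10.5 TPM in WT and 18.7, 18.5 and 24.1 TPM in DIDO3ΔE16, with no overlap. Its log2 fold change was 0.95 ± 0.13 (SE, limma, Benjamini-Hochberg adjusted p = 0.00815). Hist1h1a, of the same class, rose from 0.159, 0.338 and 0.223 TPM to 0.583, 0.551 and 0.778 TPM (1.09 ± 0.26). The other H1 members were not called. Hist1h1e, at 1.28, 1.14 and 0.883 TPM in WT, had DIDO3ΔE16 libraries at 0.929, 1.08 and 0.246 TPM.

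Of the core histones, the H2B gene Hist1h2bk (uc007psb.2, chr13:22036268-22038320) had the largest rise. WT stood at 0.397, 0.552 and 0.419 TPM and DIDO3ΔE16 at 1.77, 3.02 and 1.77 TPM (log2 fold change 1.95 ± 0.27, limma with Benjamini-Hochberg adjusted p = 0.00856). The H3 gene Hist2h3c1 (uc008qmm.4, chr3:96247297-96249348) rose from 2.12, 2.64 and 2.00 TPM to 6.57, 8 and 7.63 TPM (1.62 ± 0.15, adjusted p = 0.00283). Both were separate from WT in all libraries. Of the 2052 bases of the Hist2h3c1 feature, 1213 also lie in exons of the separately annotated gene Gm20634, on the same strand. Hist1h3c, another H3 gene, went from 1.03, 1.01 and 1.80 TPM to 3.64, 4.99 and 2.87 TPM (1.46 ± 0.33). The H4 genes Hist1h4j and Hist1h4k rose by 1.4 ± 0.29 and 0.84 ± 0.15 on the log2 scale. For H2A, Hist1h2ah was the sole call, from 0.972, 1.58 and 1.62 TPM to 3.09, 4.78 and 2.88 TPM. The remaining calls were the H2B features Hist1h2bf and Hist1h2bq uc011ywu.1, at 1.04 ± 0.22 and 1.24 ± 0.25. The Hist1h2bf feature lies mostly over that of Hist1h2bg on the opposite strand, and strands are not told apart here. Hist1h2bg had a value of -1.18 ± 0.80 and was not called. Whether reads were divided between these 2 features was not tested.

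The one member that fell was Hist1h2bc uc033gla.2, the feature of this H2B gene with a short 3′UTR. It stood at 2.55, 3.10 and 2.64 TPM in WT and 1.57, 1.31 and 1.81 TPM in DIDO3ΔE16 (log2 fold change -0.85 ± 0.17, limma with Benjamini-Hochberg adjusted p = 0.0243). It lost the call without any single library but DIDO3ΔE16 replicate 3, and it shares bases with the long feature of the gene. Hist1h2ag, the H2A member with the most signal, was also lower in every DIDO3ΔE16 library, at 19.8, 22.3 and 21.1 TPM against 32.6, 28.9 and 32.4 TPM in WT. Its change of -0.63 ± 0.08 (adjusted p = 0.00616) was smaller than the size required. Hist3h2a was at 12, 16 and 10.1 TPM in WT and 10.3, 14.6 and 14.9 TPM in DIDO3ΔE16, and the groups overlapped.

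Leaving out any of the 6 libraries left 3 to 6 members called higher, and Hist1h1c, Hist1h2bk and Hist2h3c1 were called each time. The shares of all features called in these smaller fits are not given here. The fewest, 3, came without DIDO3ΔE16 replicate 2, and 4 were called without WT replicate 2-3 or DIDO3ΔE16 replicate 3, and 6 without WT replicate 1, WT replicate 4 or DIDO3ΔE16 replicate 1. With the flow cell family in the model, 1 of the 10, Hist2h3c1, was still called, and the median was 0.44. In that fit 2 of the 57 members were called higher, a smaller share than the 1499 of all 25293 features tested.

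DIDO3ΔCT+HADIDO3 was compared with the same 3 WT libraries, so that the comparisons with WT are not independent of each other. Here 58 members were tested, 18 were higher (31.0%) and none was lower, while 7.82% of the 25337 features tested were higher and 5.67% lower. At an unadjusted p under 0.05, limma gave 28 members higher and 1, Hist1h1t, lower. The share of all features at this looser limit is not given, here or for the gene lists below, so these counts have no background. The median log2 fold change was 0.88 over the tested members and -0.01 over all other features, and 49 of the 58 values were above 0. By class, calls were 2 of 6 H1, 5 of 13 H2A, 7 of 21 H2B, 2 of 9 H3 and 2 of 9 H4 members tested.

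On the log2(TPM + 0.1) scale, which understates members below 1 TPM, the largest called rises were those of Hist3h2ba and of the long form of Hist1h2bc. The H2B gene Hist3h2ba (uc007jcr.2, chr11:58949321-58951372) read 0.644, 1.03 and 0.836 TPM in WT and 5.22, 5.53 and 6.00 TPM in DIDO3ΔCT+HADIDO3. This is a log2 fold change of 2.53 ± 0.19 (limma, Benjamini-Hochberg adjusted p = 0.00146), while its change in DIDO3ΔE16 was -0.52 (adjusted p = 0.502). Its neighbour, the H2A gene Hist3h2a (uc007jct.2, chr11:58955131-58957192), went from 12, 16 and 10.1 TPM to 28.7, 25.3 and 26.0 TPM (0.99 ± 0.18, adjusted p = 0.0176). In that feature 262 bases lie in an exon of the non-histone gene Trim17.

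Hist1h2bc uc007pul.1 (chr13:23684613-23694480), a spliced form of 2 exons with a 3′UTR of 2314 bases, is one of the long forms of a histone mRNA. It was at 7.08, 7.01 and 8.78 TPM in WT and 30, 29.8 and 33.2 TPM in DIDO3ΔCT+HADIDO3, with 6.60, 5.28 and 5.70 TPM in DIDO3ΔE16. The rise over WT was 1.92 ± 0.12 (limma, Benjamini-Hochberg adjusted p = 0.000866). Its short feature, uc033gla.2, rose by 0.76 ± 0.13, and both features of the gene summed to 10.4 ± 0.926, 7.42 ± 0.796 and 36.1 ± 1.54 TPM in WT, DIDO3ΔE16 and DIDO3ΔCT+HADIDO3. A further H2B gene with a long 3′UTR, Hist2h2be, stood at 4.36, 3.14 and 3.55 TPM in WT and 6.22, 6.61 and 7.13 TPM in DIDO3ΔCT+HADIDO3 (0.75 ± 0.14), against 2.89, 2.50 and 3.45 TPM in DIDO3ΔE16.

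**Figure D2:**
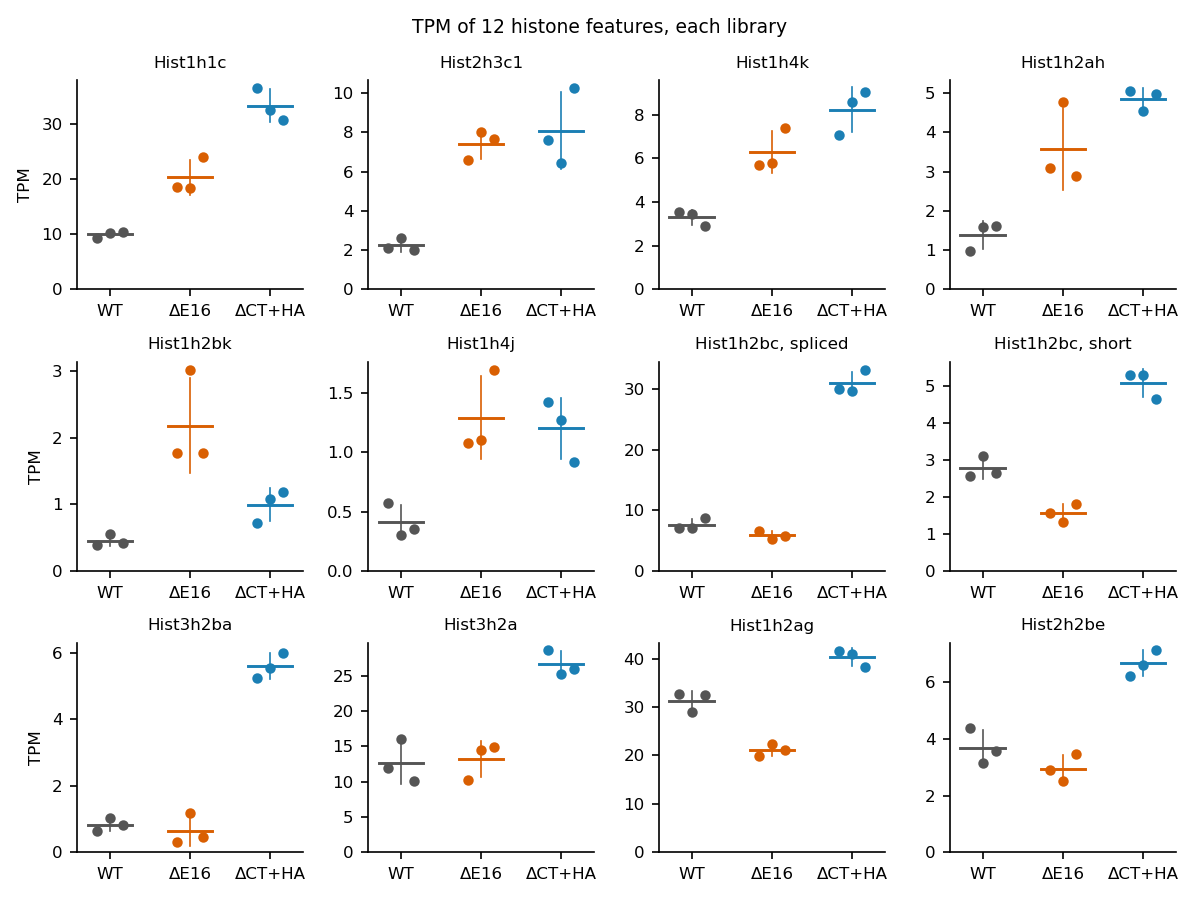
TPM of 12 histone features in each library; points are libraries, horizontal lines group means and vertical lines 1 SD, and ΔCT+HA stands for DIDO3ΔCT+HADIDO3. Hist1h1c and Hist2h3c1 lie above WT in both mutants, while Hist3h2ba and the spliced form of Hist1h2bc reach 5.22 to 6.00 and 29.8 to 33.2 TPM in DIDO3ΔCT+HADIDO3 and show no rise in DIDO3ΔE16.

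The 7 members called in DIDO3ΔE16 as well, which share the WT libraries, were Hist1h1a, Hist1h1c, Hist1h2ah, Hist1h2bk, Hist1h4j, Hist1h4k and Hist2h3c1. Hist1h1c stood at 36.7, 32.7 and 30.8 TPM in DIDO3ΔCT+HADIDO3 (1.63 ± 0.10, limma with Benjamini-Hochberg adjusted p = 0.000934). Hist2h3c1 was at 7.59, 6.42 and 10.2 TPM (1.69 ± 0.21), near its level in DIDO3ΔE16. Hist1h2bk, in contrast, was at 0.716, 1.09 and 1.19 TPM, above WT but below every DIDO3ΔE16 library. Hist1h2ah read 5.04, 4.55 and 4.98 TPM, Hist1h4k 7.06, 8.56 and 9.05 TPM and Hist1h4j 1.42, 1.27 and 0.921 TPM.

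Among the other calls, the H2A genes Hist1h2ai and Hist2h2aa2 rose by 1.4 ± 0.30 and 1.51 ± 0.30 on the log2 scale, and the H2B gene Hist1h2bh by 1.87 ± 0.21. Hist1h2bh was at 0.519, 0.315 and 0.313 TPM in WT and 1.71, 1.59 and 1.90 TPM in DIDO3ΔCT+HADIDO3. The last 3 calls, Hist1h2ad, Hist1h2bl and Hist1h3h, had log2 fold changes of 1.1, 1 and 1.64, and Hist1h2bl and Hist1h3h were below 1 TPM in every library. Hist1h1t, the testis H1 gene, had 2.08, 3.18 and 4.03 TPM in WT and 1.49, 1.62 and 1.91 TPM in DIDO3ΔCT+HADIDO3 (-0.90 ± 0.28, limma with Benjamini-Hochberg adjusted p = 0.0763). Its feature covers the coding sequence of Hist1h4c on the opposite strand.

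Leaving out one library left 8 to 17 members called higher: 10, 8 and 11 without DIDO3ΔCT+HADIDO3 replicates 1, 2 and 3, and at least 12 without a WT library. Again, the shares of all features in these fits are not given. Hist1h1c, Hist1h2ah, Hist1h2bc uc007pul.1, Hist1h2bh, Hist1h4k, Hist2h3c1 and Hist3h2ba were called each time. Without WT replicate 1, Hist1h1t was called lower, and without WT replicate 4, Hist1h2ap was. With the flow cell family in the model, 8 of the 18 were still called, among them Hist3h2ba, Hist1h1c and Hist1h2bc uc007pul.1. In that fit 1639 of all 25337 features tested were called higher.

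Setting DIDO3ΔE16 against DIDO3ΔCT+HADIDO3 directly, 62 members were tested, 2 were higher in DIDO3ΔE16 (3.23%) and 9 lower (14.5%). Of the 25550 features tested, 11.5% were higher and 11% lower, so the share of members lower was little above that of all features. The median log2 difference was -0.35 over the members and 0.00 over the other features, and 45 of the 62 values were below 0. The members lower in DIDO3ΔE16 included both features of Hist1h2bc (-2.37 ± 0.10 for uc007pul.1 and -1.63 ± 0.16 for uc033gla.2), Hist3h2ba (-3.07 ± 0.45), Hist3h2a (-1 ± 0.17), Hist2h2be (-1.14 ± 0.14) and Hist1h2ag (-0.91 ± 0.07).

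**Figure D3:**
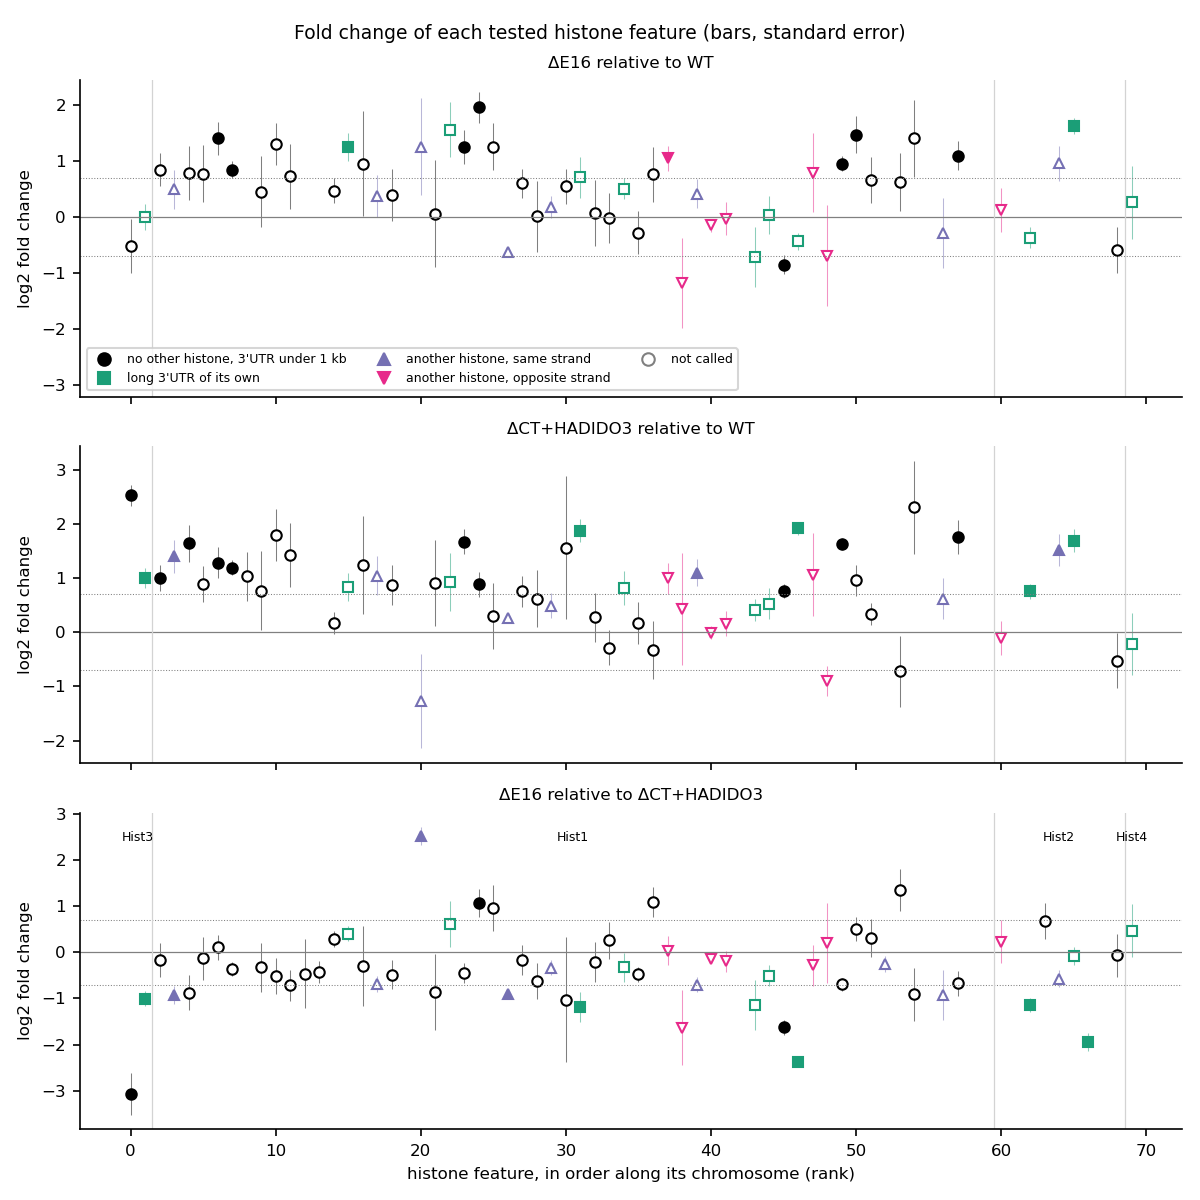
Log2 fold change of each tested histone feature, on the log2(TPM + 0.1) scale with its standard error, in the 3 comparisons (panels), ordered by position along the chromosomes of the Hist3, Hist1, Hist2 and Hist4 genes; filled symbols were called, open ones were not, symbol shapes and colours give what the feature covers, and dotted lines mark the size limit of 0.7. Values against WT lie mostly above 0, with medians of 0.50 and 0.88, and those of DIDO3ΔE16 against DIDO3ΔCT+HADIDO3 mostly below 0, with a median of -0.35.

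Hist2h4, an H4 gene that could not be tested against WT because WT replicate 1 was at 0, was also lower in DIDO3ΔE16. It read 0, 0.402 and 0.127 TPM in WT against 0.595, 0.746 and 0.867 TPM in DIDO3ΔE16 and 2.75, 3.72 and 2.96 TPM in DIDO3ΔCT+HADIDO3. The 3 groups did not overlap, and the difference between the mutants was -1.94 ± 0.20 (limma, Benjamini-Hochberg adjusted p = 0.00173). Hist1h2bh and Hist1h2ai completed the 9 lower members, at -1.18 ± 0.32 and -0.93 ± 0.20. Of the 2 higher members, Hist1h2bk differed by 1.06 ± 0.30 (adjusted p = 0.0466). It lost its call without any one of the 6 libraries, Hist1h2ai without DIDO3ΔE16 replicate 1 or 3 or DIDO3ΔCT+HADIDO3 replicate 1 or 3, and Hist1h2bh without any library but DIDO3ΔE16 replicate 1, whereas the other 8 calls held.

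The other higher member, Hist1h2ap, has a near-identical copy. It stood at 3.94, 5.44 and 0.577 TPM in WT against 6.07, 6.92 and 5.22 TPM in DIDO3ΔE16 and 0.784, 1 and 1.23 TPM in DIDO3ΔCT+HADIDO3 (difference 2.51 ± 0.20, limma with Benjamini-Hochberg adjusted p = 0.000825). Its copy Hist1h2ao, which shares 93.5% of the 50-base words of the shorter transcript, was at 3.32, 3.22 and 7.07 TPM, 6.72, 6.12 and 4.59 TPM, and 9.53, 10.5 and 8.41 TPM in the same order. The libraries low in one were high in the other, and the pair summed to 7.86 ± 0.72 TPM in WT against 11.9 ± 1.80 in DIDO3ΔE16 and 10.5 ± 0.952 in DIDO3ΔCT+HADIDO3. Whether reads were divided between the copies was not tested, and the value of Hist1h2ap alone is uncertain. Of the 65 genes, 59 shared at least one 50-base word with another member, with Hist1h2bq and Hist1h2br at 97.3% and Hist1h4m and Hist1h4n at 89.8%. Summed as pairs, Hist1h2bq and Hist1h2br gave 1.88 ± 0.374, 4.30 ± 0.914 and 4.05 ± 1.20 TPM, and Hist2h3c1 and Hist2h3c2 gave 2.37 ± 0.256, 7.94 ± 0.638 and 8.38 ± 2.08 TPM, so both mutants stayed above WT.

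Because histone genes lie close together, the added 2 kb often reaches a neighbour, and the members were set apart by what they cover. In 40 features the stretch held no other histone coding sequence and no 3′UTR of 1000 bases or more from an unspliced transcript. In 12 it held a long 3′UTR of the same gene, in 11 the coding sequence of another histone on the same strand, and in 7 one on the opposite strand. Spliced GENCODE transcripts were not counted. The short features of Hist1h2bc, Hist1h2bq and Hist1h2br therefore stayed among the 40, though they share bases with the long features of these genes. The limit of 1000 bases for a long 3′UTR was set after values were seen, so these sums are a description. The 40 features gave 34.7, 33.7 and 35.0 TPM in WT against 60.4, 64.8 and 65.4 TPM in DIDO3ΔE16 and 94.5, 88.6 and 101.1 TPM in DIDO3ΔCT+HADIDO3, ratios to WT of 1.84 and 2.75. Without Hist1h1c, these ratios were 1.76 and 2.51. In 11 of the 40, GENCODE annotates a 3′UTR of over 100 bases in an unspliced transcript, 880 in Hist1h1c. The other 29 summed to 18.8 to 20.7 TPM in WT against 32.6 to 35.4 in DIDO3ΔE16 and 43.5 to 57.6 in DIDO3ΔCT+HADIDO3, with ratios of 1.72 and 2.48. These 29 still hold the short features of Hist1h2bc, Hist1h2bq and Hist1h2br, whose spliced transcripts have longer 3′UTRs. They are therefore not free of longer annotated forms. The 12 features with a long 3′UTR of their own gave ratios of 1.20 and 2.73 with no overlap of WT and DIDO3ΔE16. Most of their signal came from Hist3h2a and Hist1h2bc, without which the ratios were 1.71 and 2.51.

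**Figure D4:**
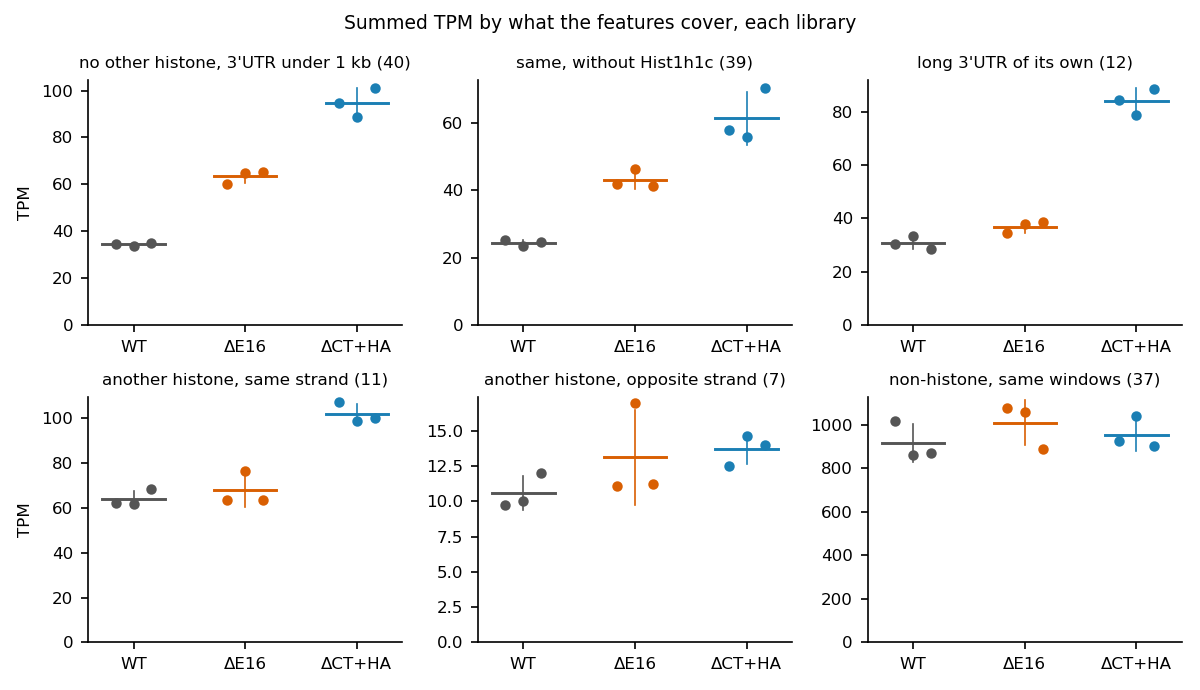
Summed TPM per library of the histone features by what the 3′UTR with 2 kb added covers (number of features in brackets), and of the non-histone features of the same windows; points are libraries, horizontal lines group means and vertical lines 1 SD. The 40 features with no other histone and no 3′UTR of 1000 bases or more from an unspliced transcript separate all 3 groups. WT lies at 33.7 to 35.0 TPM and DIDO3ΔE16 at 60.4 to 65.4, whereas WT and DIDO3ΔE16 overlap for features that reach another histone on either strand.

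Features that reach another histone on the same strand, among them Hist1h2ag, summed to 62.0, 61.7 and 68.1 TPM in WT against 63.6, 76.5 and 63.6 TPM in DIDO3ΔE16 and 106.9, 98.6 and 100 TPM in DIDO3ΔCT+HADIDO3, so that WT and DIDO3ΔE16 overlapped. Those that reach one on the opposite strand gave ratios to WT of 1.24 and 1.29. Over the 33 members with no base in common with any other feature, on whichever strand, 8 of 28 tested (28.6%) were higher in DIDO3ΔE16 than in WT and 12 of 29 (41.4%) in DIDO3ΔCT+HADIDO3, none was lower, and the medians were 0.68 and 0.96. Among all features tested, sharing bases or not, 8.17% and 7.82% were higher.

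Non-histone features of the same genomic windows numbered 37. The window on chromosome 13 ended before 11 of the members, Hist1h1c and Hist1h1a among them, and their neighbours were not compared. The 37 features summed to 916.1 ± 87.5 TPM in WT against 1010 ± 103 in DIDO3ΔE16 and 955.8 ± 75 in DIDO3ΔCT+HADIDO3, with overlapping groups. In DIDO3ΔE16, 1 of the 18 tested was higher than WT and the median was 0.01. In DIDO3ΔCT+HADIDO3, 6 of 19 were higher (31.6%), the same share as among the members to within 1 percentage point, though their median was -0.09. Of these, 5 lie within the Hist1 cluster on chromosome 13, where 9 were tested with a median of 1.53. They belong to the genes Prss16, Pom121l2 and Btn1a1. Btn1a1 (uc007ptr.2), which encodes a milk fat globule protein, had the largest of these rises, at 2.63 ± 0.30 (limma, Benjamini-Hochberg adjusted p = 0.00447). Zfp322a, a zinc finger gene, had a value of -2.50 and was not called (adjusted p = 0.0743). On chromosome 6, next to Hist4h4, BC049715 rose by 2.80 ± 0.18 in DIDO3ΔE16 (adjusted p = 0.00117), ahead of Pom121l2 at 1.45 and Art4 at 0.95, neither of which was called there. As a second yardstick, 3672 other features with at most 100 bases of 3′UTR consist mostly of the added stretch too. Among these, 9.40% of those tested were higher and 3.80% lower in DIDO3ΔE16, with a median of 0.00, and 8.06% higher and 4.28% lower in DIDO3ΔCT+HADIDO3, with a median of 0.03.

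Genes that make or process histone mRNA were read by their own extended 3′UTRs. Of 21 such genes, among them Npat, the activator of histone transcription, Slbp and the U7 snRNP protein genes Lsm10 and Lsm11, 17 were tested against WT and limma called none in either mutant. At an unadjusted p under 0.05, 2 were higher and 5 lower in DIDO3ΔE16, and 3 higher and 5 lower in DIDO3ΔCT+HADIDO3, each by less than the size required or short of the adjusted test. Npat stood at 35.9 ± 2.56, 33.2 ± 0.932 and 30.6 ± 4.18 TPM in WT, DIDO3ΔE16 and DIDO3ΔCT+HADIDO3. In 6 of the 19 genes with a feature, Slbp, Lsm10, Zfp473, Cpsf1, Upf1 and Mblac1, the libraries of one group differed by over 5-fold, so the lack of a call there says little. Slbp was at 138 ± 68.7 TPM in WT.

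Of 11 genes for replication-independent and variant histones, such as H3f3a and H3f3b, and of 19 genes of S phase, such as Mcm2, Pcna and Ccne1, limma called none in either mutant against WT. Libraries of one group differed by over 5-fold in 3 of the former (H2afz, H2afv and H2afy) and 5 of the latter (Mcm5, Mcm6, Ccne2, Cdt1 and Pola1), where the lack of a call says little too. At an unadjusted p under 0.05, 3 variant histone genes were higher and 1 lower in DIDO3ΔE16, and 4 higher and 1 lower in DIDO3ΔCT+HADIDO3. For S phase, 8 were lower in DIDO3ΔE16, and 3 higher and 6 lower in DIDO3ΔCT+HADIDO3. The limma adjusted p was under 0.05 for 6 S phase genes in DIDO3ΔE16, all lower, and for 4 in DIDO3ΔCT+HADIDO3. It was so for 2 and 3 variant histone genes. All of these changes were smaller than the size required. The share of all features at the adjusted limit alone is not given, so these counts have no background either. Of 8 histone chaperone genes tested, the H1 and H3 chaperone Nasp (uc008ugz.1) was called higher in both mutants (1.55 ± 0.29 and 0.96 ± 0.25), at 0.737 ± 0.227, 2.44 ± 0.675 and 1.6 ± 0.272 TPM. The other chaperone genes tested averaged at least 48.6 TPM in every group. This low feature may therefore not stand for the Nasp mRNA as a whole, which was not tested. Atrx, which deposits H3.3, fell by 1.15 ± 0.12 in DIDO3ΔCT+HADIDO3, from 208.2 ± 31.0 to 99.7 ± 9.80 TPM. Of the 6 ESC markers, all were above 0 in the group means, none was called in DIDO3ΔE16, and in DIDO3ΔCT+HADIDO3 Zfp42 rose by 1.67 and Klf4 fell by 0.74 on the log2 scale, while Nanog and Esrrb differed by over 5-fold within a group.

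The members not tested against WT, 13 in DIDO3ΔE16 and 12 in DIDO3ΔCT+HADIDO3, had a library at 0. Besides Hist2h4, they included Hist1h4a, at 0 in all WT libraries and 0.945, 0.35 and 0.504 TPM in DIDO3ΔCT+HADIDO3, and Hist1h2bp uc056ytc.1, at 2.80, 0 and 1.90 TPM in WT and 4.33, 5.59 and 7.80 TPM in DIDO3ΔCT+HADIDO3. Hist2h2ab was above 0 in a single library, DIDO3ΔCT+HADIDO3 replicate 2, at 0.891 TPM.

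The promoters of 59 member genes, from 250 bases before to 50 bases after the start (RefSeq, GRCm38.p6), were searched on both strands for motifs chosen after values were seen. CCAAT, the sequence bound by NF-Y, was found in all 6 H1, all 17 H2A, all 17 H2B and all 7 H3 promoters but in 3 of 12 H4 promoters, against 37.4% of 32851 promoters in all. The octamer ATTTGCAT, bound by OCT1, occurred in 7 H2A and 7 H2B promoters and in no other class, against 1.74% of all promoters. TATAAA occurred in 55.9% of the member promoters and 13.6% of all.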

How the data were processed

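Paired-end RNA-seq of 9 libraries (10 labels) was processed by the authors with BWA 0.7.15 on mm10, duplicates were removed, and StringTie 1.3.3 gave the deposited TPM of 43031 features, with the coverage signal and other attributes, without scaling between libraries. No strand option was given to StringTie, so opposite strands are not told apart. How RNA was selected before library preparation is not given in the sources used here. Duplicate removal can lower strong features, and reads of near-identical copies may be split. GENCODE vM21 named 42367 features.

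Unrounded TPM were trimmed-mean scaled (30% each end), transformed as log2(TPM + 0.1) and tested with limma 3.58.1 (R 4.3.3), per pair of groups, with Benjamini-Hochberg adjustment, on features above 0 in all libraries compared. The authors tested with edgeR, which needs counts. The script was tested on simulated data. A permutation test of 3 against 3 libraries cannot give p below 0.1. Values are mean ± SD unless SE is named. Fold changes carry their SE.

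Members and lists were chosen with earlier results of these data known. Genes were named by a rule: up to 8 called members per direction with at least 1 TPM, the 3 with most signal per class, all of Hist2 to Hist4, genes with several features, and the 3 neighbours that changed most. Alternatives covered pseudocount, filter, scaling, overlap, threshold, flow cell and libraries left out.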

Additional observations from a re-analysis of the deposited data

How the results depend on the processing

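No called value and no median changed direction under any alternative, while 19 of the 99 named log2 fold changes, none of them called, took both signs over the settings. The median log2 fold change of the tested members was 0.23 to 0.69 in DIDO3ΔE16 against WT, 0.41 to 0.99 in DIDO3ΔCT+HADIDO3 against WT and -0.57 to -0.23 between the mutants, over all settings. Low signal, few replicates, overlapping features and the flow cell family limit single calls, and the cause of each move below was not tested unless the setting itself gives it (a stricter limit, fewer features or fewer libraries).

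Members called higher in DIDO3ΔE16 than in WT, 10, numbered 6 with quantile normalization, 3 at an adjusted p under 0.01, 2 with the flow cell family as covariate and 3 to 6 with a library left out. The 2 with the flow cell covariate, of 57 tested, were a smaller share than the 1499 of all 25293 features. Those called higher in DIDO3ΔCT+HADIDO3, 18, numbered 7 at an adjusted p under 0.01, 9 with the flow cell covariate and 8 to 17 with a library left out. The 2 higher in DIDO3ΔE16 than in DIDO3ΔCT+HADIDO3 were 1 with a pseudocount of 1, no filter, no scaling, quantile normalization, an adjusted p under 0.01 or the replicate block, and 1 to 2 with a library left out. The 1 member lower in DIDO3ΔE16 than in WT was 0 with a pseudocount of 1, an adjusted p under 0.01, TPM summed by gene, features sharing no base on their strand or on either strand, and the flow cell covariate, 2 at a fold of 1.5, and 0 to 1 with a library left out. For DIDO3ΔCT+HADIDO3, where none was lower, 1 (Hist1h1t) was lower with TPM summed by gene and among features sharing no base on their strand, and 0 to 1 with a library left out. Between the mutants 9 lower members became 5 among features sharing no base, and 7 to 10 with a library left out.

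The median of DIDO3ΔE16 against WT, 0.50, was 0.59 with a pseudocount of 0.01, 0.23 with a pseudocount of 1, 0.40 at a mean of at least 1 TPM, 0.36 with quantile normalization, 0.58 by gene, 0.69 or 0.68 without shared bases on one or either strand, 0.44 with the flow cell covariate, and 0.46 to 0.54 with a library left out. For DIDO3ΔCT+HADIDO3, 0.88 became 0.41 with a pseudocount of 1, 0.99 at a mean of at least 1 TPM and 0.76 to 0.91 with a library left out. Between the mutants, -0.35 became -0.57 at a mean of at least 1 TPM and -0.49 to -0.33 with a library left out.

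The replicate numbers do not pair the libraries (correlations of same-numbered deviations from -0.015 to 0.0236). With the replicate block, 0 members were called in either direction against WT, where 1 residual degree of freedom remained among samples. In those fits 0 of all features tested were called too, so this says nothing about histones. Between the mutants 1 of 62 members was higher and 6 lower, while 2355 of all 25550 features tested were higher and 2291 lower. The share of members lower was thus near that of all features. TPM rounded to 3 decimals were used first and replaced by the unrounded values after that fit was seen; these and 10 other scaling references, also chosen after seeing the data, left 10 higher in DIDO3ΔE16 and 17 to 19 in DIDO3ΔCT+HADIDO3.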

Other observations

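Outside the histone genes, the features whose level followed the summed histone signal most closely over the 9 libraries were Tor1aip2, Grk3, Hunk, Lrrc3 and Pros1. Their Pearson correlations of log2(TPM + 0.1) with the histone sum were 0.993, 0.991, 0.991, 0.99 and 0.99, the 5 highest of 13088 features ranked. The 9 points fall into 3 groups, so these values mostly reflect the order of the group means and are given as a description. Hunk, a protein kinase gene, averaged 24.8 TPM in WT against 36.8 in DIDO3ΔE16 and 101.5 in DIDO3ΔCT+HADIDO3, and Grk3, a receptor kinase gene, 8.42, 13.2 and 31.0 TPM.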
